A study of Mus musculus with 9 samples.

Results

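Expression of 36 genes of glycolysis and of the response to low oxygen was followed in CD4+ T cells that were turned into regulatory T cells (Treg cells) in culture. The genes were taken by symbol from a table of 14912 genes. All 36 were present, and all 36 were among the 10983 genes with enough signal to be tested, that is, at least 5 normalized counts in at least 3 of the 9 libraries. Every library came from mice of the strain B6.Cg-Foxp3tm2(EGFP)Tch/J, hemizygous for an allele in which the Foxp3 locus also makes eGFP. Green cells thus mark expression of Foxp3, the transcription factor that defines Treg cells. The mTO-iTreg group held 3 libraries of eGFP+ CD4+ T cells taken on day 5 from co-culture with organoids of murine colorectal tumours. The T cells were stimulated through CD3 and CD28 (antibodies, 1 µg/ml of each) and received IL-2 at 20 U/ml; no TGFβ is listed. The TGFβ-iTreg group held 3 libraries of eGFP+ CD4+ T cells, also of day 5, that were stimulated in the same way but with TGFβ (10 ng/ml) and with more IL-2 (300 U/ml). The day 0 group held 3 libraries of eGFP- CD4+ T cells taken before culture. The 2 kinds of iTreg cells therefore differed in TGFβ, in IL-2 dose and in the presence of organoids at once, and these cannot be told apart. The labels also name the mTO-iTreg libraries in another scheme than the other 6, so any batch cannot be told apart from the group. The ages and sexes of the mice are not in the labels, and neither is whether replicates came from different mice or cultures, so a p-value here covers the spread between libraries, which may be technical.

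In glycolysis, glucose enters a cell through transporters, is phosphorylated by hexokinase, is split by aldolase into triose phosphates and is converted through further steps to pyruvate. Pyruvate is either reduced to lactate and exported or taken into mitochondria, where pyruvate dehydrogenase, held back by pyruvate dehydrogenase kinases, commits it to oxidation. Low oxygen slows the prolyl hydroxylases that mark the factor HIF-1α for destruction, and HIF-1 then binds hypoxia response elements of many of these genes. Activated T cells raise glycolysis also with oxygen present, and in mouse T cells HIF-1α and glycolysis are known to bear on the choice between effector and Treg fates.

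The start sites of 6 members are shown because they hold the letters of the hypoxia response element and because these genes mark the extremes of the results: Aldoc, Eno3, Car9 and Pfkfb4 had the largest log2 differences of the 36 between the 2 kinds of iTreg cells, Pgk1 differed less, and Ldha did not pass the test between them. Sequences are RefSeq promoter windows of build GRCm38.p6, from 250 bases before to 50 bases after a start site, written 5′ to 3′ on the strand of the gene; where RefSeq lists several starts, the window nearest to the gene's annotated start is shown. Capitals mark ACGTG or GCGTG on either strand (CACGT or CACGC on the strand shown); a CACGTG holds ACGTG on both strands.
Aldoc, chr11:78322823-78323122, plus strand: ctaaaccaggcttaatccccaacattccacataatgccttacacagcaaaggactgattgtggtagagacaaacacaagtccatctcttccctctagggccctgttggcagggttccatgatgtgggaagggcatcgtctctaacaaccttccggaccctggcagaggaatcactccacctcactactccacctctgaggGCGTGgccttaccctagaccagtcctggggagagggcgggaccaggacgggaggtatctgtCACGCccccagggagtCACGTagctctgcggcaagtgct
Eno3, chr11:70656926-70657225, plus strand: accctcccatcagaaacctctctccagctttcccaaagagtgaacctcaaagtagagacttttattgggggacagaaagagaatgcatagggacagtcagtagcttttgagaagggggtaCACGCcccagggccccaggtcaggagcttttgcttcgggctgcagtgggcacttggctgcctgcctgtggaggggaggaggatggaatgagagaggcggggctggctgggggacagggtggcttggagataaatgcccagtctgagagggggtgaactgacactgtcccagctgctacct
Car9, chr4:43506776-43507075, plus strand: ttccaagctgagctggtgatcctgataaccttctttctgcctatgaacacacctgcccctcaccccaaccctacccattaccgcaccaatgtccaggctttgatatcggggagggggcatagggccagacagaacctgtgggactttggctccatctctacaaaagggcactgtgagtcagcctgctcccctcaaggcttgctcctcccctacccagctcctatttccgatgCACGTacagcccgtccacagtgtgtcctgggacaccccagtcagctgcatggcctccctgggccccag
Pfkfb4, chr9:108991652-108991951, plus strand: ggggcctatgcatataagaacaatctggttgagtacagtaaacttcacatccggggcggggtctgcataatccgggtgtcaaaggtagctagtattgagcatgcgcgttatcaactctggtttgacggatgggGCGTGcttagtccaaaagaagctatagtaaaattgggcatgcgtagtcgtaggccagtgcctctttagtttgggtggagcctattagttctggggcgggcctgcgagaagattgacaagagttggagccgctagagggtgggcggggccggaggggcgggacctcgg
Pgk1, chrX:106186850-106187149, plus strand: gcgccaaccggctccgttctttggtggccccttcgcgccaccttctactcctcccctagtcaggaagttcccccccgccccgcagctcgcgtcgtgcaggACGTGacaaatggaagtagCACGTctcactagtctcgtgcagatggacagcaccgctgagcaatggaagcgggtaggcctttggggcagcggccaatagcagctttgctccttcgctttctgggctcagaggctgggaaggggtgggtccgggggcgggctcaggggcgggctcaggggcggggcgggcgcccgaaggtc
Ldha, chr7:46845554-46845853, plus strand: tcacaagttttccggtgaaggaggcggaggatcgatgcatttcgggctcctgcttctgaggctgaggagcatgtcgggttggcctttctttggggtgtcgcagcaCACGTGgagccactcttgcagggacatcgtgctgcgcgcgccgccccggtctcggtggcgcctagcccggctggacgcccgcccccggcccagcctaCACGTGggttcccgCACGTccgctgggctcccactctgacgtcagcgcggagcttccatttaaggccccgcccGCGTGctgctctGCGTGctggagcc
RefSeq windows were matched for 34 of the 36 members, and Slc2a3 and Bnip3l had no entry. ACGTG was present in a window of 24 of the 34 members (70.6%), against 30.2% of the 8262 tested genes with an entry and 21.8% of all 27025 genes with an entry. GCGTG was present for 21 of the 34 (61.8%), against 57.4% of tested genes and 35.2% of all genes with an entry. At least 1 of the 2 was found for 31 members, or 91.2%, against 68.8% of tested genes; Gpi1, Tpi1 and Eno2 had neither. The Ldha window held the most matches of the 34, 7 in all counting both strands. The list was chosen in part for the response to low oxygen, so these shares are no test of it. A match is a run of letters and not a measured binding site. The relation of these matches to expression was not tested.

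The mTO-iTreg libraries held 7551177 to 7969853 counts, the TGFβ-iTreg libraries 2078223 to 9944952 and the day 0 libraries 2267922 to 5328169. A single count was worth 0.494 to 2.69 normalized counts, so that 3 counts, the floor used here, were 1.48 to 8.06. Foxp3 itself was at 37.2 to 81.0 normalized counts in mTO-iTreg, 14.8 to 19.7 in TGFβ-iTreg and 0 to 8.77 in day 0 libraries. The eGFP transcript was at 262 to 462 normalized counts in mTO-iTreg, 588 to 695 in TGFβ-iTreg and 26.3 to 86.5 in day 0 libraries. Xist, the RNA of the silenced X chromosome of females, was at 314 to 401 in mTO-iTreg libraries, 0 to 70.6 in TGFβ-iTreg libraries and 0 to 212 in day 0 libraries. All mTO-iTreg libraries lay above all others, while TGFβ-iTreg and day 0 overlapped. The sex of the mice therefore cannot be told apart from the difference of mTO-iTreg from the other groups, for any member. Mitochondrial RNA made up 12.2 to 12.5% of mTO-iTreg, 10.4 to 12.3% of TGFβ-iTreg and 17.4 to 19.6% of day 0 libraries. Of 9 T cell markers in the table, none was at 0 in any group. They summed to 21847 to 25749 in mTO-iTreg, 18654 to 21054 in TGFβ-iTreg and 30264 to 32678 in day 0 libraries. Single markers differed in direction between the iTreg groups. Cd4 was 2866 to 3533 in mTO-iTreg and 970 to 1043 in TGFβ-iTreg, while Lck was 3110 to 3505 and 4767 to 5189. In the limma test described below, 3 of the 9 rose and 2 fell there, beside 14.9% and 11.8% of all genes.

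Together the 36 genes took 0.662, 0.787 and 0.722% of all normalized counts in the mTO-iTreg libraries, 0.413, 0.415 and 0.417% in the TGFβ-iTreg libraries and 0.259, 0.270 and 0.280% in the day 0 libraries, so the 3 groups did not overlap. Their summed level was 36586 ± 2425 normalized counts in mTO-iTreg, 20639 ± 411 in TGFβ-iTreg and 15928 ± 454 in day 0 cells (SD, n = 3 each). The ratio was 1.77 for mTO-iTreg over TGFβ-iTreg, 2.30 for mTO-iTreg over day 0 and 1.30 for TGFβ-iTreg over day 0. Because the members were chosen with earlier results known, these sums carry no p-value. Fewer cells of a type and less RNA per cell cannot be told apart in such bulk samples. Since each count stands for the 3′ end of a transcript and is not scaled to length, levels are compared between groups and not between genes.

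Sums over the steps of the pathway are described here without a test of their differences. The 2 glucose transporters summed to 443 ± 116 in mTO-iTreg, 150 ± 27.3 in TGFβ-iTreg and 144 ± 6.03 in day 0 cells, a ratio of 2.96 between mTO-iTreg and TGFβ-iTreg, with 86.2% of the mTO-iTreg sum from Slc2a3. The 10 genes from hexokinase to aldolase summed to 11838 ± 700 in mTO-iTreg, 3940.0 ± 183 in TGFβ-iTreg and 3832 ± 179 in day 0 cells. The ratio was 3.00 between mTO-iTreg and TGFβ-iTreg and 1.03 between TGFβ-iTreg and day 0. Aldoa and Gpi1 made up 77.4% of that sum in mTO-iTreg, 75.0% in TGFβ-iTreg and 78.8% in day 0 cells, and the other 8 genes gave ratios of 2.72 and 1.21. The 8 genes from triose phosphate isomerase to pyruvate kinase summed to 9862 ± 1028 in mTO-iTreg, 5099 ± 79.3 in TGFβ-iTreg and 2936 ± 152 in day 0 cells, with ratios of 1.93 and 1.74 in the same order. Pkm and Pgk1 made up 57.0% of that sum in mTO-iTreg, 47.3% in TGFβ-iTreg and 57.5% in day 0 cells. Without these 2 genes the ratios were 1.58 and 2.15, so which of the 2 ratios is larger depends on them. The 7 genes that handle pyruvate and lactate summed to 5244 ± 484 in mTO-iTreg and 5307 ± 175 in TGFβ-iTreg cells, a ratio of 0.988, against 4157 ± 242 in day 0 cells. Ldha alone made up 83.9% of this sum in mTO-iTreg, 84.4% in TGFβ-iTreg and 74.7% in day 0 cells, so the sum mostly shows Ldha; the other 6 gave a ratio of 1.02 between mTO-iTreg and TGFβ-iTreg. The 9 hypoxia genes gave a ratio of 1.50 between mTO-iTreg and TGFβ-iTreg, and 1.10 without Mif, the largest part of their sum in mTO-iTreg cells. As shares of all counts, the genes from hexokinase to aldolase took 0.0792% of TGFβ-iTreg and 0.0648% of day 0 libraries on average, so their closeness between TGFβ-iTreg and day 0 holds on the deposited scale and not on that of equal totals.

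**Figure D1:**
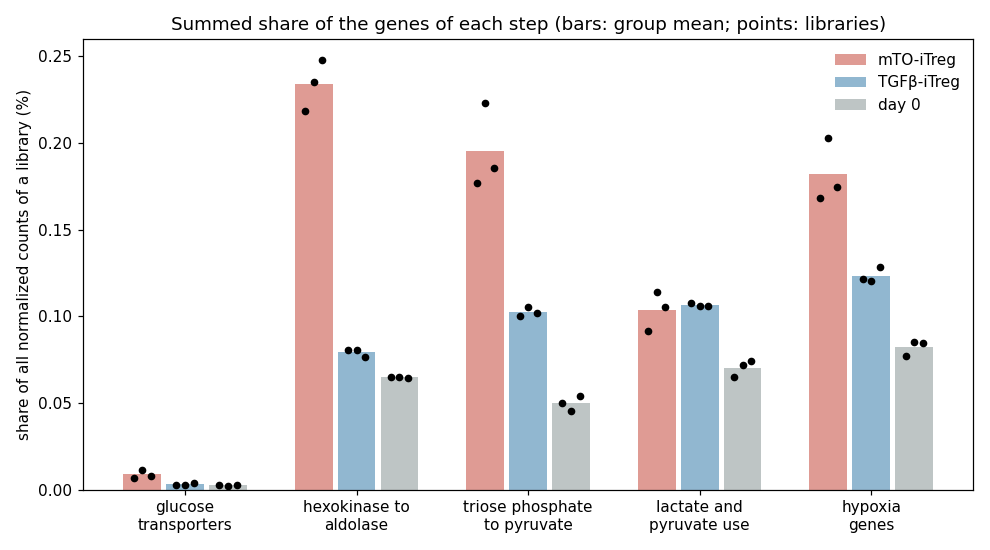
Share of all normalized counts of a library, in percent, taken by the genes of each step, with a bar for the group mean and a point for each of the 3 libraries. The genes from hexokinase to aldolase averaged 0.234% in mTO-iTreg and 0.0792% in TGFβ-iTreg libraries, while those of lactate and pyruvate use averaged 0.104% and 0.107%.

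Gene by gene, each of the 3 comparisons was tested with limma across all 10983 genes, on log2(normalized count + 1), with Benjamini-Hochberg adjusted p under 0.05 as the threshold. Between mTO-iTreg and TGFβ-iTreg cells, 17 of the 36 members rose in mTO-iTreg cells and 2 fell, where 14.9% of all genes tested rose and 11.8% fell (26.6% in either direction). Between mTO-iTreg and day 0 cells, 23 members rose and 2 fell, where 19.4% of all genes rose and 14.5% fell (33.9% in either direction). Between TGFβ-iTreg and day 0 cells, 11 members rose and 1 fell, where 9.78% of all genes rose and 8.8% fell (18.6% in either direction). Of these 12 calls only 3 were kept under all alternatives. The calls of Ldha and Mif were lost only where a log2 difference of at least 1 was also required. Leaving out 1 library at a time gave 5 to 10 members higher. The median log2 difference over the members was 1.00 between mTO-iTreg and TGFβ-iTreg, 1.60 between mTO-iTreg and day 0 and 0.48 between TGFβ-iTreg and day 0, beside 0.13, 0.09 and -0.02 over all genes tested. With Car9, which had no count at day 0, at its lower bound, the median of 1.60 was the same. The 2 comparisons of mTO-iTreg cells share the mTO-iTreg libraries, and the 2 against day 0 share the day 0 libraries. Car9 and Pfkfb4 reached the minimum for testing only through the mTO-iTreg libraries, so their calls as higher there are no support. Without genes that were tested only through 1 of the groups compared, 15 members were higher in mTO-iTreg than in TGFβ-iTreg cells (14.4% of 10004 genes), 22 were higher than at day 0 (19.0% of 9940) and 11 were higher in TGFβ-iTreg than at day 0 (10.1% of 10183).

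The balance of all calls depends on the scaling. Of the genes called between TGFβ-iTreg and day 0, 52.6% were higher in TGFβ-iTreg, against 75.4% with every library scaled to 1 total and 65.6% with mitochondrial genes and Rn45s left out of the scaling. Between mTO-iTreg and day 0, 57.1% were higher, against 70.4% with equal totals. Between mTO-iTreg and TGFβ-iTreg, 55.8% were higher, against 44.7% with TMM factors, a trimmed mean of ratios. Equal totals raised the median of all genes by 0.22 (mTO-iTreg against day 0) and 0.24 (TGFβ-iTreg against day 0) on the log2 scale, and relative to that median the members' median was 1.52 and 0.51, beside 1.51 and 0.49 as deposited.

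The libraries of mTO-iTreg and TGFβ-iTreg cells did not overlap for 21 members higher in mTO-iTreg cells and 4 lower there, where this held for 25.9% and 18.7% of all genes. Those of mTO-iTreg and day 0 did not overlap for 25 members higher in mTO-iTreg cells and 2 lower (25.8% and 20.3% of all genes), and those of TGFβ-iTreg and day 0 for 13 higher in TGFβ-iTreg cells and 2 lower (18% and 17.8%). The mean was highest in mTO-iTreg cells for 24 members, in TGFβ-iTreg cells for 7 and at day 0 for 5. In all, 29 members passed the test in at least 1 comparison, and besides Car9, 14 were higher in mTO-iTreg cells than in both other groups: Slc2a3, Gpi1, Pfkm, Pfkp, Aldoa, Aldoc, Tpi1, Gapdh, Pgk1, Eno3, Pkm, Hif1a, Bnip3 and Mif. The 7 that passed in none were Slc2a1, Pfkl, Pfkfb3, Eno1, Slc16a1, Egln1 and P4ha1. For these counts over several comparisons, and for the group of the highest mean, no share over all genes was computed. They are description only. Values below are normalized counts per library, in the order of replicates 1, 2 and 3, and folds are ratios of group means.

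**Figure D2:**
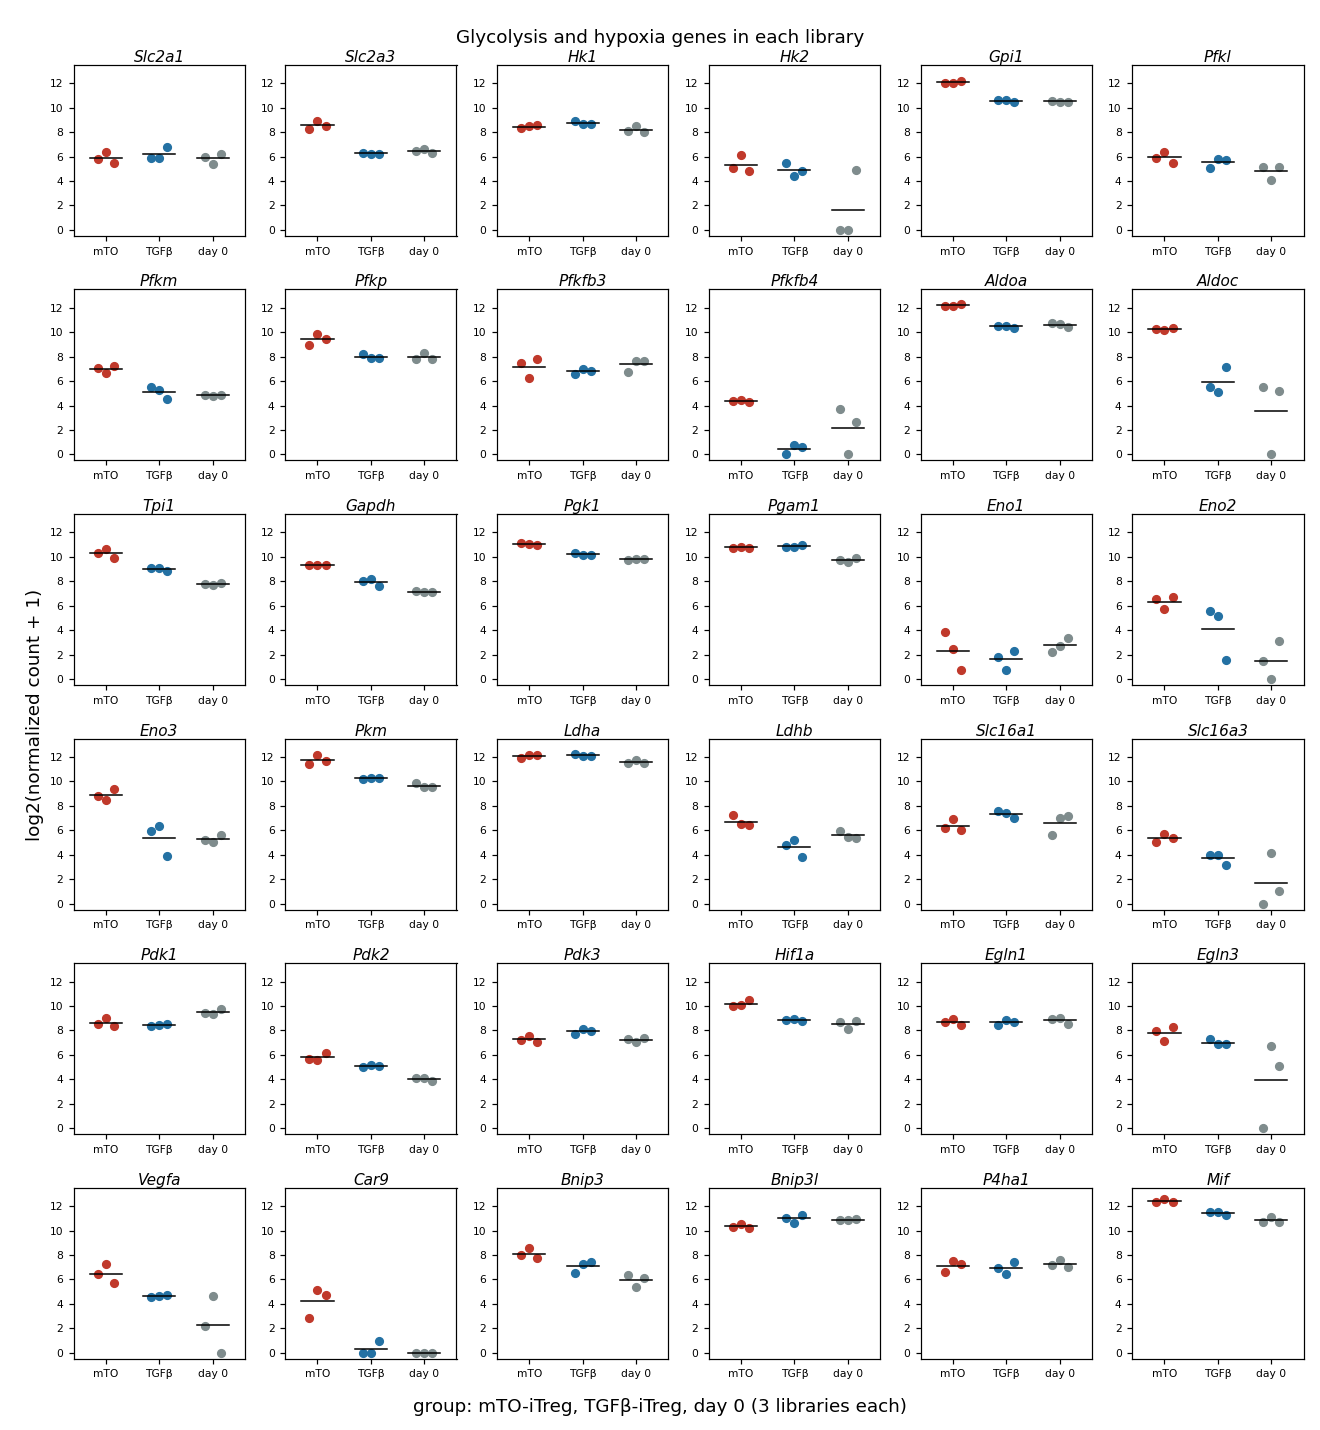
Level of each of the 36 genes in each library, as log2(normalized count + 1), with 1 point per library and a line at the group mean on that scale, for mTO-iTreg, TGFβ-iTreg and day 0. Slc2a3, Gpi1, Aldoa, Aldoc, Eno3 and Pkm have all mTO-iTreg points above all others, while the mTO-iTreg and TGFβ-iTreg points of Pgam1 and Ldha overlap and lie above day 0.

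Glucose uptake differed between its 2 transporters. Slc2a3, which encodes the high-affinity transporter GLUT3, had 295, 489 and 361 normalized counts in mTO-iTreg, 78.7, 73.2 and 73.1 in TGFβ-iTreg and 86.0, 96.8 and 74.9 in day 0 libraries. It was 5.09-fold higher in mTO-iTreg than in TGFβ-iTreg cells (log2 difference 2.30 ± 0.25, adjusted p = 2.18e-05) and 4.45-fold higher than at day 0 (adjusted p = 2.75e-05), with no overlap of the mTO-iTreg libraries with any other. Slc2a1, the GLUT1 transporter that T cells raise on activation, ranged from 43.8 to 83.1 in mTO-iTreg, 57.0 to 108 in TGFβ-iTreg and 40.3 to 72.8 in day 0 libraries, and did not pass the test in any comparison. Between mTO-iTreg and TGFβ-iTreg cells its log2 difference was -0.27 ± 0.39, with a 95% interval of -1.12 to 0.57.

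Of the 2 hexokinases, which trap glucose as glucose-6-phosphate, neither passed the test between the 2 kinds of iTreg cells. Hk2, the form that T cells induce on activation, had 32.7, 67.6 and 26.6 normalized counts in mTO-iTreg, 44.3, 20.3 and 27.2 in TGFβ-iTreg and 0, 0 and 29.5 in day 0 libraries. Day 0 replicates 1 and 2 were at 0 and replicate 3 lay within the range of both iTreg groups, so the groups overlap. Hk2 passed the test in mTO-iTreg cells (log2 difference 3.68 ± 1.07, adjusted p = 0.017) and in TGFβ-iTreg cells against day 0 (log2 difference 3.27 ± 1.07, adjusted p = 0.049). These calls rest on single libraries: without day 0 replicate 1 the log2 differences were 2.85 and 2.44 (adjusted p = 0.0725 and 0.171, limma), and over all alternatives adjusted p ran from 0.000129 to 0.0738 and from 0.000543 to 0.305. Hk1, the constitutive form, ranged from 314 to 377 in mTO-iTreg, 397 to 489 in TGFβ-iTreg and 249 to 352 in day 0 libraries. It rose 1.48-fold in TGFβ-iTreg cells against day 0 (adjusted p = 0.0395), a call lost without any one of 5 of the 6 libraries (adjusted p up to 0.141, from 0.00467).

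Glucose-6-phosphate isomerase and the main aldolase were both higher in mTO-iTreg cells than in either other group. Gpi1, whose product turns glucose-6-phosphate into fructose-6-phosphate, had 4204, 4246 and 4709 normalized counts in mTO-iTreg, 1601, 1546 and 1431 in TGFβ-iTreg and 1498, 1435 and 1423 in day 0 libraries. The mTO-iTreg libraries stood 2.87-fold above TGFβ-iTreg (adjusted p = 8.42e-07) and 3.02-fold above day 0 (adjusted p = 3.15e-07), and TGFβ-iTreg and day 0 overlapped. Aldoa, the main aldolase of most tissues, had 4619, 4630.2 and 5082 normalized counts in mTO-iTreg, 1476, 1493 and 1322 in TGFβ-iTreg and 1689.5, 1599 and 1410.5 in day 0 libraries. Its fold was 3.34 over TGFβ-iTreg (log2 difference 1.74 ± 0.11, adjusted p = 4.02e-07) and 3.05 over day 0 (adjusted p = 4.7e-07), while TGFβ-iTreg cells differed from day 0 by -0.13 ± 0.11 on the log2 scale (adjusted p = 0.477).

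Aldoc (chromosome 11, 78322968 to 78327781), the aldolase best known from brain, had 1200.4, 1138 and 1317 normalized counts in mTO-iTreg, 44.3, 33.2 and 139 in TGFβ-iTreg and 45.6, 0 and 34.8 in day 0 libraries. The mTO-iTreg libraries lie close together and far above the rest, whereas TGFβ-iTreg replicate 3 is about 3 to 4 times the other TGFβ-iTreg libraries and day 0 replicate 2 is at 0. Aldoc averaged 16.9-fold more in mTO-iTreg than in TGFβ-iTreg cells (log2 difference 4.34 ± 1.06, adjusted p = 0.00816), and the log2 difference was 4.95 without TGFβ-iTreg replicate 3. Against day 0 the log2 difference was 6.68 ± 1.06 (adjusted p = 0.000304), and it was 4.90 without day 0 replicate 2 and 7.67 and 7.48 without replicates 1 and 3.

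Phosphofructokinase, the committing step of glycolysis, differed by gene. Pfkm, the muscle form, had 131, 102 and 145 normalized counts in mTO-iTreg, 44.3, 38.7 and 22.7 in TGFβ-iTreg and 28.1, 26.9 and 28.5 in day 0 libraries. Pfkp, the platelet form, had 501, 921 and 678 normalized counts in mTO-iTreg, 293, 243 and 230.2 in TGFβ-iTreg and 225, 319.9 and 217 in day 0 libraries. Both were higher in every mTO-iTreg library than in any other. Pfkm rose 3.59-fold over TGFβ-iTreg (adjusted p = 0.0028) and 4.54-fold over day 0 (adjusted p = 0.000706), and Pfkp rose 2.74-fold (adjusted p = 0.000572) and 2.76-fold (adjusted p = 0.000331). Pfkl, the liver form, ranged from 44.5 to 81.9 in mTO-iTreg, 32.0 to 54.9 in TGFβ-iTreg and 16.1 to 33.8 in day 0 libraries. It did not pass the main test in any comparison (adjusted p = 0.0611 for mTO-iTreg against day 0). Against day 0 Pfkl in mTO-iTreg passed in 2 of 22 alternatives, equal totals and scaling without mitochondrial genes and Rn45s (limma, adjusted p = 0.0318 and 0.0443).

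The 2 members that set the level of fructose-2,6-bisphosphate, the activator of phosphofructokinase, had different patterns. Pfkfb4 had 19.1, 21.1 and 18.6 normalized counts in mTO-iTreg, 0, 0.678 and 0.494 in TGFβ-iTreg and 12.3, 0 and 5.27 in day 0 libraries. These are 90 counts in mTO-iTreg, 2 in TGFβ-iTreg and 12 in day 0 cells. From counts pooled within each group and scaled by the worth of 1 count, the ratio of mTO-iTreg to TGFβ-iTreg was 38.3. Its 95% counting interval was 10.3 to 321, and the ratio of group means was 50.2. Pfkfb4 was tested only because of its mTO-iTreg libraries, so no p-value is given for its comparisons of mTO-iTreg cells. In the main test it did not pass against day 0 (log2 difference 2.24 ± 0.96). Without day 0 replicate 1 that log2 difference was 3.04. Pfkfb3, induced by activation and by hypoxia, ranged from 74.4 to 218 in mTO-iTreg, 93.5 to 123 in TGFβ-iTreg and 109 to 204 in day 0 libraries and passed no test.

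Of the 8 genes between triose phosphates and pyruvate, 5 rose in mTO-iTreg against TGFβ-iTreg, 7 in mTO-iTreg against day 0 and 5 in TGFβ-iTreg against day 0, where 14.9%, 19.4% and 9.78% of all genes rose. The 10 genes from hexokinase to aldolase gave 6, 6 and 2, and the difference between the 2 sets was not tested. Of the 5 calls against day 0 in TGFβ-iTreg cells, those of Gapdh, Pgk1 and Pkm were lost when single libraries were left out, as given with each. Tpi1, triosephosphate isomerase, had 1253, 1630.3 and 972 normalized counts in mTO-iTreg, 541, 545 and 449 in TGFβ-iTreg and 214, 204 and 229 in day 0 libraries. All 3 groups are apart, with mTO-iTreg 2.51-fold above TGFβ-iTreg (adjusted p = 0.000197) and TGFβ-iTreg 2.37-fold above day 0 (log2 difference 1.24 ± 0.18, adjusted p = 0.000499). Gapdh, the enzyme of the oxidative step, had 650.0, 635 and 638 normalized counts in mTO-iTreg, 256, 286 and 192 in TGFβ-iTreg and 146, 137 and 136 in day 0 libraries, in the same order of groups. It was 2.62-fold higher in mTO-iTreg than in TGFβ-iTreg (adjusted p = 0.000108) and 1.75-fold higher in TGFβ-iTreg than at day 0 (adjusted p = 0.00972; log2 difference 0.66 and adjusted p = 0.0503 without TGFβ-iTreg replicate 2, and 0.00173 to 0.0689 over the alternatives). The Gapdh values are uncertain, since 90.5% of the 50-base runs in the last 500 bases of its transcripts occur in other annotated genes.

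Pgk1 (chromosome X, 106187100 to 106203699), phosphoglycerate kinase, which makes the first ATP of the pathway, had 2206, 2071 and 2036 normalized counts in mTO-iTreg, 1289, 1126 and 1147 in TGFβ-iTreg and 851, 895 and 902 in day 0 libraries. The groups did not overlap, with folds of 1.77 for mTO-iTreg over TGFβ-iTreg (adjusted p = 0.000162) and 1.35 for TGFβ-iTreg over day 0 (adjusted p = 0.0197; 0.37 on the log2 scale and adjusted p = 0.0839 without TGFβ-iTreg replicate 1, 0.0629 without day 0 replicate 1, and 0.00111 to 0.13 over the alternatives). Pgk1 lies on the X chromosome, and Xist was higher in mTO-iTreg than in the other libraries, as given above; its part in the result was not tested. Pkm, pyruvate kinase, which makes pyruvate and a further ATP, had 2767, 4458 and 3313 normalized counts in mTO-iTreg, 1151, 1271 and 1246 in TGFβ-iTreg and 925, 731 and 756 in day 0 libraries. It was 2.87-fold higher in mTO-iTreg than in TGFβ-iTreg (adjusted p = 2.39e-05) and 4.37-fold higher than at day 0 (adjusted p = 9.06e-07). TGFβ-iTreg cells stood 1.52-fold above day 0 (adjusted p = 0.019), which did not pass when any of TGFβ-iTreg replicates 2 and 3 or day 0 replicates 2 and 3 was left out (adjusted p = 0.0547 to 0.0672; 0.00328 to 0.0992 over the alternatives).

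Pgam1 broke the order. This phosphoglycerate mutase had 1685, 1828 and 1726 normalized counts in mTO-iTreg, 1788, 1813 and 1954 in TGFβ-iTreg and 839, 755 and 944 in day 0 libraries. The 2 kinds of iTreg cells overlapped (log2 difference -0.08 ± 0.12, 95% interval -0.34 to 0.17, adjusted p = 0.644), and both stood about 2 times above day 0 (2.06-fold in mTO-iTreg, adjusted p = 2.22e-05, and 2.19-fold in TGFβ-iTreg, adjusted p = 3.57e-05). The interval leaves out a difference of the size seen for Pgk1, the step before it.

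The 3 enolases, which form phosphoenolpyruvate, could be compared only in part. Eno3, the enolase of muscle (chromosome 11, 70657202 to 70662513), had 441, 354 and 659 normalized counts in mTO-iTreg, 61.5, 78.7 and 13.8 in TGFβ-iTreg and 35.1, 32.3 and 47.5 in day 0 libraries. Every mTO-iTreg library was above every other library, and TGFβ-iTreg replicate 3 was the lowest of all. Eno3 rose 9.44-fold over TGFβ-iTreg (log2 difference 3.48 ± 0.51, adjusted p = 0.000253; 2.73 without TGFβ-iTreg replicate 3) and 12.7-fold over day 0 (adjusted p = 0.000127). Eno2, the enolase of neurons, had 90.0, 51.5 and 103 normalized counts in mTO-iTreg, 46.7, 33.9 and 1.98 in TGFβ-iTreg and 1.75, 0 and 7.38 in day 0 libraries. It rose 26.8-fold in mTO-iTreg against day 0 (log2 difference 4.80 ± 1.00, adjusted p = 0.00232). That log2 difference was 4.04 without day 0 replicate 2 and 5.58 without replicate 3, and a limma-voom fit on counts lost the call (4.39, adjusted p = 0.0551). TGFβ-iTreg replicate 3 stood near day 0, and neither other comparison passed in the main test. TGFβ-iTreg against day 0 passed without TGFβ-iTreg replicate 3 (log2 difference 3.84, adjusted p = 0.00998) and without day 0 replicate 3 (3.36, adjusted p = 0.0454), within 0.00998 to 0.645 over the alternatives. The comparison of mTO-iTreg with TGFβ-iTreg (adjusted p = 0.12) passed with limma-voom (2.94, adjusted p = 0.00894) and without the shallowest day 0 and TGFβ-iTreg libraries (2.96, adjusted p = 0.0409). Eno1, the enolase of most tissues, was read only 27 times in mTO-iTreg, 10 times in TGFβ-iTreg and 13 times in day 0 cells. Of its 3′ runs of 50 bases, 75.2% occur in other annotated genes. No conclusion is therefore drawn on Eno1 or on the ratios that use it.

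Past pyruvate, the 2 lactate dehydrogenases parted. Ldha, whose subunit favours lactate formation, had 3891, 4641 and 4660.5 normalized counts in mTO-iTreg, 4715, 4319 and 4404 in TGFβ-iTreg and 2953, 3414 and 2949 in day 0 libraries. The 2 iTreg groups overlapped (log2 difference -0.03 ± 0.11, 95% interval -0.27 to 0.21), and both were above day 0, 1.42-fold in mTO-iTreg (adjusted p = 0.00365) and 1.44-fold in TGFβ-iTreg cells (adjusted p = 0.00529). Ldhb, whose subunit favours the use of lactate, had 148, 89.3 and 84.4 normalized counts in mTO-iTreg, 27.1, 35.3 and 13.3 in TGFβ-iTreg and 59.7, 43.0 and 41.1 in day 0 libraries. It was 4.25-fold higher in mTO-iTreg than in TGFβ-iTreg (log2 difference 2.10 ± 0.43, adjusted p = 0.00298), with TGFβ-iTreg below day 0 in every library but not past the test (log2 difference -0.98 ± 0.43, adjusted p = 0.136). Ldhb in mTO-iTreg was 2.24-fold above day 0 but did not pass (limma, adjusted p = 0.0612). It did pass in 5 of 22 alternatives (adjusted p from 0.0267 to 0.22). The counts of Ldhb are uncertain too, with 24.4% of its 3′ runs shared with another gene.

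Of the 2 lactate transporters, Slc16a3, the MCT4 exporter of glycolytic cells, had 32.7, 52.1 and 39.9 normalized counts in mTO-iTreg, 14.8, 14.9 and 7.90 in TGFβ-iTreg and 0, 16.1 and 1.05 in day 0 libraries. The mTO-iTreg libraries were all above the others, and the rise over day 0 passed (log2 difference 3.67 ± 0.90, adjusted p = 0.00632). This log2 difference was 2.82 without day 0 replicate 1 and 4.87 without replicate 2. The rise over TGFβ-iTreg did not pass (1.68 ± 0.90, adjusted p = 0.188), although it did in 2 of 22 alternatives (adjusted p from 0.0211 to 0.374). TGFβ-iTreg passed against day 0 only where day 0 replicate 2 was left out (3.19, adjusted p = 0.00981; 0.00981 to 0.409 over the alternatives). Slc16a1, the MCT1 transporter, ranged from 63.1 to 119 in mTO-iTreg, 130 to 187 in TGFβ-iTreg and 49.1 to 140 in day 0 libraries. Its log2 difference between mTO-iTreg and TGFβ-iTreg was -0.98 ± 0.39 (adjusted p = 0.0779) and passed in 6 of 22 alternatives (adjusted p from 0.0199 to 0.214), among them those without mTO-iTreg replicate 2 (0.0491) and without day 0 replicate 1 (0.0273).

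The pyruvate dehydrogenase kinases, which hold back pyruvate dehydrogenase in mitochondria, went in different directions. Pdk1, the kinase induced by HIF-1, had 366, 509 and 329 normalized counts in mTO-iTreg, 329.6, 347 and 365 in TGFβ-iTreg and 677, 645 and 864 in day 0 libraries. It fell in both kinds of iTreg cells against day 0, to 0.551 of the day 0 mean in mTO-iTreg (adjusted p = 0.00258) and to 0.476 in TGFβ-iTreg cells (log2 difference -1.06 ± 0.19, adjusted p = 0.00155). Pdk2 had 49.1, 47.8 and 70.4 normalized counts in mTO-iTreg, 32.0, 35.3 and 33.6 in TGFβ-iTreg and 15.8, 16.1 and 13.7 in day 0 libraries. The 3 groups did not overlap, but only mTO-iTreg against day 0 passed (3.67-fold, adjusted p = 0.00512). Pdk3, which lies on the X chromosome, ranged from 129 to 189 in mTO-iTreg, 204 to 283 in TGFβ-iTreg and 129 to 167 in day 0 libraries. It fell by 0.66 on the log2 scale in mTO-iTreg against TGFβ-iTreg (adjusted p = 0.0455) and rose 1.65-fold in TGFβ-iTreg against day 0 (adjusted p = 0.0431). Both calls are close to the threshold. The first was lost in 11 of 22 alternatives (adjusted p up to 0.156, without TGFβ-iTreg replicate 2). The second was lost in 10 (up to 0.152, also without it). Each of these counts includes the alternative that required a log2 difference of at least 1, which both calls lose by construction. The part of Xist in these 2 results was not tested.

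**Figure D3:**
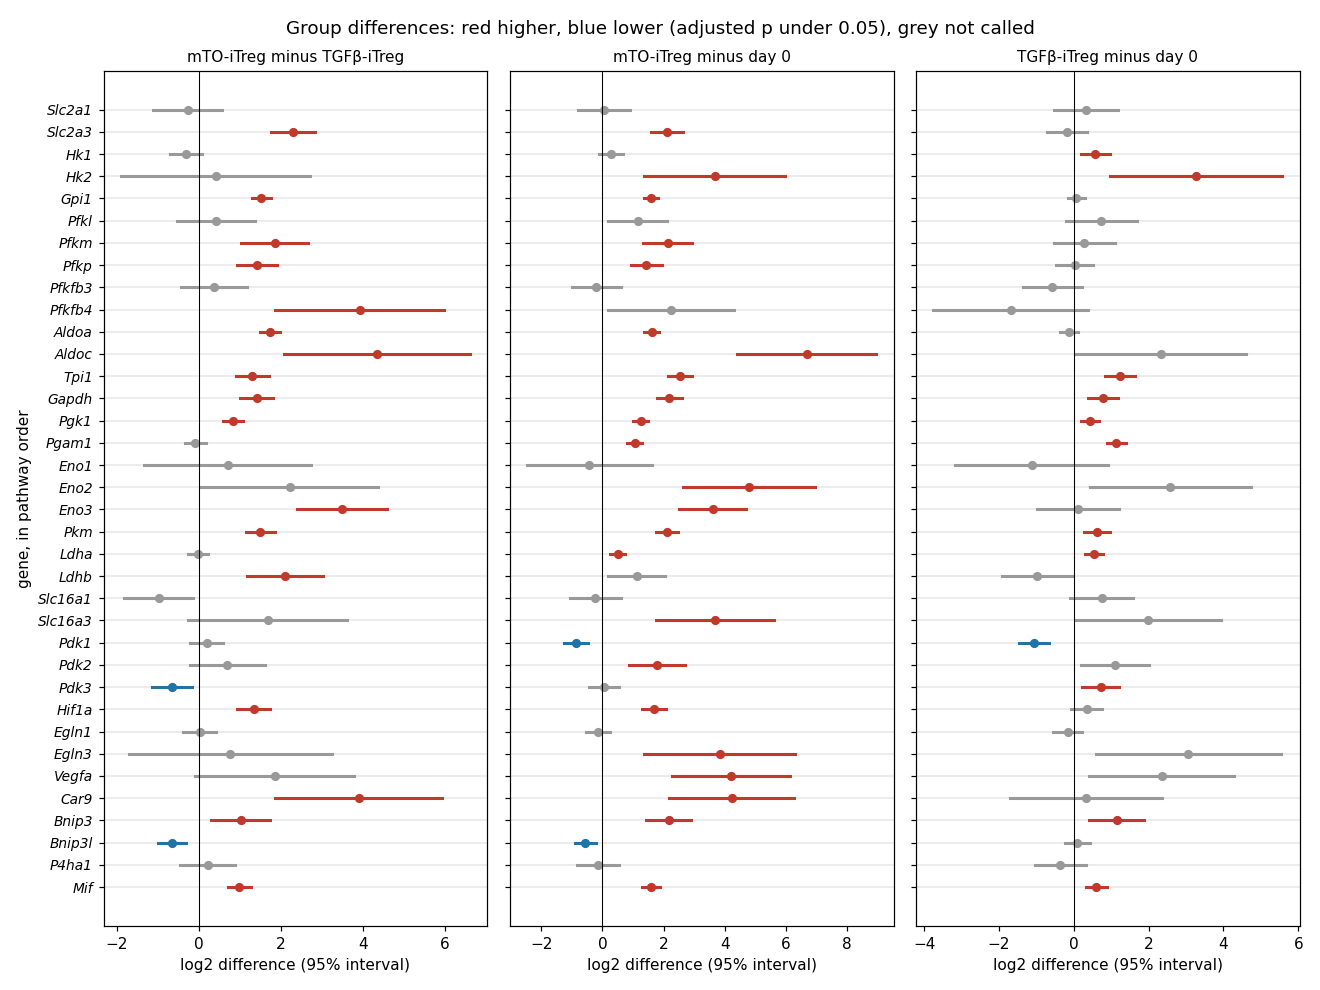
Log2 difference of each of the 36 genes in the 3 comparisons, with its 95% interval from limma, in pathway order from glucose uptake at the top to the hypoxia genes. Red marks a rise and blue a fall with adjusted p under 0.05: 17 and 2 in mTO-iTreg minus TGFβ-iTreg, 23 and 2 in mTO-iTreg minus day 0, and 11 and 1 in TGFβ-iTreg minus day 0.

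Among the genes of oxygen sensing, Hif1a, which encodes HIF-1α, had 1043, 1111 and 1408 normalized counts in mTO-iTreg, 462, 502 and 430.3 in TGFβ-iTreg and 418, 274 and 429 in day 0 libraries. It was 2.55-fold higher in mTO-iTreg than in TGFβ-iTreg (log2 difference 1.34 ± 0.19, adjusted p = 0.00018) and 3.18-fold higher than at day 0 (adjusted p = 1.83e-05), with no overlap. HIF-1α is controlled mainly through the stability of the protein, which was not measured here. Egln3, a prolyl hydroxylase that is itself a HIF target, had 244, 140.2 and 302 normalized counts in mTO-iTreg, 152, 115 and 119 in TGFβ-iTreg and 0, 108 and 32.7 in day 0 libraries. The day 0 libraries were widely spread, and the rise in mTO-iTreg against day 0 (4.89-fold, adjusted p = 0.0198) was lost without mTO-iTreg replicate 1 or 3 (adjusted p = 0.0565 and 0.0712; 0.00189 to 0.0712 over the alternatives). Its log2 difference of 3.83 ± 1.15 became 1.86 without day 0 replicate 1 and 5.24 without replicate 2. TGFβ-iTreg against day 0, at 3.06 ± 1.15 and adjusted p = 0.0819, passed without replicate 2 (4.47, adjusted p = 0.0108). Egln1, the main hydroxylase of normal oxygen, ranged from 353 to 488 in mTO-iTreg, 354 to 450 in TGFβ-iTreg and 377 to 522 in day 0 libraries and passed no test.

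The hypoxia targets of the list differed in size. Car9 (chromosome 4, 43506966 to 43513729), a carbonic anhydrase at the cell surface that is a classical marker of HIF activity, had 6.14, 34.1 and 25.2 normalized counts in mTO-iTreg, 0, 0 and 0.988 in TGFβ-iTreg and 0, 0 and 0 in day 0 libraries. It was read 102 times in mTO-iTreg, 2 times in TGFβ-iTreg and not at all in day 0 cells. From counts pooled and scaled as for Pfkfb4, the ratio of mTO-iTreg to TGFβ-iTreg was 43.5 with a 95% counting interval of 11.7 to 364. The ratio of group means was 66.3. Car9 was at least 13.8-fold higher than at day 0, taking 3 counts for the whole day 0 group as the floor. Every mTO-iTreg library was above every other, and replicate 1 was the lowest of them. Car9 entered the test only through the mTO-iTreg libraries, so no p-value is given.

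Vegfa, the blood vessel growth factor, had 86.6, 154 and 51.8 normalized counts in mTO-iTreg, 22.1, 23.7 and 25.7 in TGFβ-iTreg and 3.51, 24.2 and 0 in day 0 libraries. Every mTO-iTreg library was above every other, and the rise over day 0 passed (log2 difference 4.21 ± 0.90, adjusted p = 0.00271; 5.40 without day 0 replicate 2 and 3.07 without replicate 3). Against TGFβ-iTreg the log2 difference of 1.85 ± 0.90 did not pass (adjusted p = 0.147), although it did in 5 of 22 alternatives (adjusted p from 0.0108 to 0.35), including those without day 0 replicate 2 (0.0455) or 3 (0.0474). TGFβ-iTreg against day 0 passed only where day 0 replicate 2 was left out (3.55, adjusted p = 0.00591).

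Bnip3 and Bnip3l, related HIF targets that mark mitochondria for removal, moved in opposite directions. Bnip3 had 254, 390.2 and 214 normalized counts in mTO-iTreg, 93.5, 155 and 175 in TGFβ-iTreg and 82.5, 40.3 and 68.6 in day 0 libraries. All 3 groups were apart. It was 2.03-fold higher in mTO-iTreg than in TGFβ-iTreg (adjusted p = 0.0399, lost in 9 of 22 alternatives with up to 0.157, without mTO-iTreg replicate 2) and 4.49-fold higher than at day 0 (adjusted p = 0.000279). TGFβ-iTreg stood 2.21-fold above day 0 (adjusted p = 0.0313; 0.119 without TGFβ-iTreg replicate 3, and 0.0133 to 0.119 over the alternatives). Bnip3l ranged from 1199.7 to 1481 in mTO-iTreg, 1589 to 2523 in TGFβ-iTreg and 1814 to 2016 in day 0 libraries. It fell by 0.65 on the log2 scale against TGFβ-iTreg (adjusted p = 0.00807) and by 0.55 against day 0 (adjusted p = 0.0148; lost without mTO-iTreg replicate 1 or 3, with 0.0508 and 0.0557, and with equal totals, 0.134, against 0.0063 to 0.134 over the alternatives).

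Mif, a cytokine that HIF-1 induces, had 5308, 6056 and 5192 normalized counts in mTO-iTreg, 2919.5, 2987 and 2449.5 in TGFβ-iTreg and 1681, 2167 and 1687 in day 0 libraries. The 3 groups did not overlap, with mTO-iTreg 1.98-fold above TGFβ-iTreg (adjusted p = 0.000116), mTO-iTreg 2.99-fold above day 0 (adjusted p = 1.51e-06) and TGFβ-iTreg 1.51-fold above day 0 (adjusted p = 0.00637). Of the 3′ runs of Mif, 56.1% occur in other annotated genes, so its level is uncertain. P4ha1, a collagen prolyl hydroxylase and HIF target, ranged from 96.9 to 178 in mTO-iTreg, 84.1 to 173 in TGFβ-iTreg and 130 to 191 in day 0 libraries and passed no test.

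Ratios of related genes within a library do not depend on its scaling, apart from the 1 added to each value. For 14 pairs the log2 ratio (of values + 1) was compared between groups with a two-sided exact permutation test, in which 3 against 3 libraries cannot give a p below 0.1; over the 42 comparisons the smallest Benjamini-Hochberg adjusted p was 0.21, so none passed. The ratios did not overlap between mTO-iTreg and TGFβ-iTreg for 7 pairs, between mTO-iTreg and day 0 for 9 and between TGFβ-iTreg and day 0 for 4. The 7 include Pfkfb4/Pfkfb3, and the 9 include Eno2/Eno1 and Eno3/Eno1, with the limits of Pfkfb4 and Eno1 given above. No share over other pairs of genes was computed, so these counts are description only. The log2 ratio of Aldoc to Aldoa was -1.94, -2.02 and -1.95 in mTO-iTreg, -5.03, -5.45 and -3.24 in TGFβ-iTreg and -5.18, -10.64 and -5.30 in day 0 libraries, so it was higher in every mTO-iTreg library than in any other. For Slc2a3 to Slc2a1 it was 2.38, 2.54 and 3.01 in mTO-iTreg, 0.41, 0.36 and -0.55 in TGFβ-iTreg and 0.48, 1.24 and 0.04 in day 0 libraries. For Slc16a1 to Slc16a3 it was 1.08, 1.18 and 0.65 in mTO-iTreg, 3.58, 3.42 and 3.88 in TGFβ-iTreg and 5.65, 2.89 and 6.10 in day 0 libraries. These pairs separated the mTO-iTreg libraries from both other groups.

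Other pairs differed in which groups they separated. The log2 ratio of Pdk3 to Pdk1 was -1.35 ± 0.08 in mTO-iTreg, -0.50 ± 0.20 in TGFβ-iTreg and -2.27 ± 0.12 in day 0 libraries (SD, n = 3), with no overlap between any groups. That of Pdk2 to Pdk1 was -2.82 ± 0.59 in mTO-iTreg and -3.33 ± 0.07 in TGFβ-iTreg libraries, which overlapped, and -5.48 ± 0.34 at day 0. Ldhb to Ldha was -5.39 ± 0.59 in mTO-iTreg, -7.52 ± 0.69 in TGFβ-iTreg and -6.00 ± 0.35 in day 0 libraries, so TGFβ-iTreg stood below both. Bnip3l to Bnip3 was 2.22 ± 0.28 in mTO-iTreg, 3.89 ± 0.56 in TGFβ-iTreg and 4.94 ± 0.54 in day 0 libraries, with mTO-iTreg below both and TGFβ-iTreg and day 0 overlapping.

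**Figure D4:**
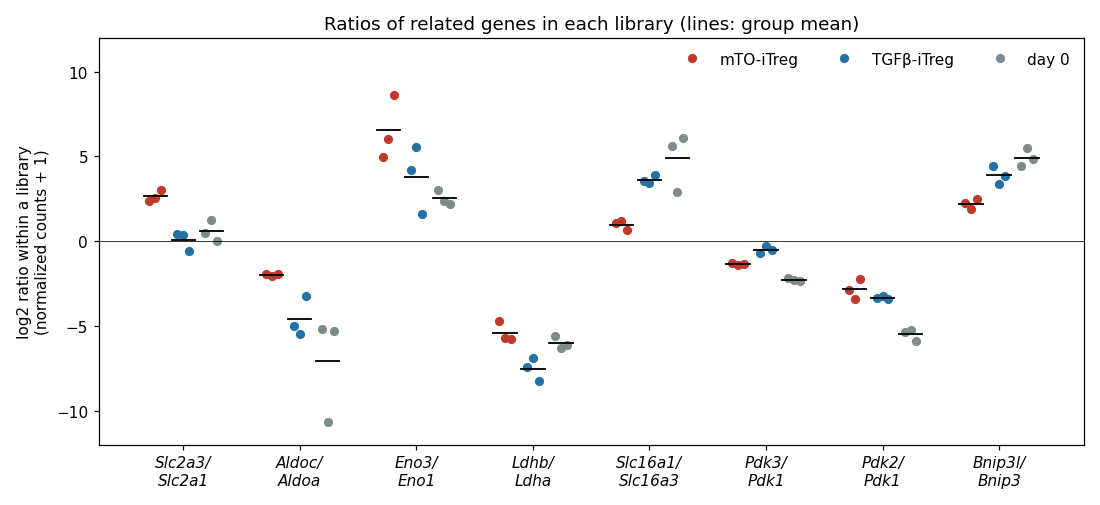
Log2 ratio of 2 related genes within each library, for 8 of the 14 pairs, with 1 point per library and a line at the group mean. The mTO-iTreg points of Aldoc/Aldoa, Slc2a3/Slc2a1, Slc16a1/Slc16a3 and Bnip3l/Bnip3 lie apart from both other groups, and Pdk3/Pdk1 separates all 3.

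Genes around the pathway were read from 3 further lists. Of 8 tested genes among other glycolytic isozymes and regulators, none rose and 3 fell in mTO-iTreg against TGFβ-iTreg cells, 1 rose and 2 fell against day 0, and 1 rose in TGFβ-iTreg against day 0. The 3 that fell are 37.5%, beside 11.8% of all genes. In each of the day 0 comparisons the 1 that rose is 12.5%, beside 19.4% and 9.78%. The 2 that fell in mTO-iTreg against day 0 are 25%, beside 14.5%. The median log2 difference of the 8 genes between mTO-iTreg and TGFβ-iTreg was -0.58, beside 0.13 over all genes. Myc, the transcription factor that raises glycolytic genes on T cell activation, had 452, 586 and 415 normalized counts in mTO-iTreg, 922, 898 and 700.1 in TGFβ-iTreg and 395, 398 and 305 in day 0 libraries. It fell by 0.80 on the log2 scale in mTO-iTreg against TGFβ-iTreg (adjusted p = 0.00546) and rose 2.30-fold in TGFβ-iTreg against day 0 (adjusted p = 0.000563), and mTO-iTreg did not pass against day 0 (adjusted p = 0.107). Galm, which interconverts the 2 forms of glucose, fell to 0.298 of the TGFβ-iTreg mean (adjusted p = 0.00472), and Adpgk, an ADP-dependent glucokinase, to 0.358 (adjusted p = 0.00167) and to 0.537 of the day 0 mean (adjusted p = 0.0263). Slc2a8, the GLUT8 transporter, rose against day 0 (log2 difference 2.64 ± 0.90, adjusted p = 0.0355), and Pfkfb2, a further fructose-2,6-bisphosphate enzyme, fell (log2 difference -1.59 ± 0.47, adjusted p = 0.0185).

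Of 11 tested genes for entry of pyruvate into mitochondria, none rose and 1 fell in mTO-iTreg against TGFβ-iTreg, 2 rose and 1 fell against day 0, and none was called in TGFβ-iTreg against day 0 by limma. These shares, 9.09% down, 18.2% up and 9.09% down, were at or under the 11.8%, 19.4% and 14.5% of all genes. Pdha1, the catalytic subunit that the pyruvate dehydrogenase kinases phosphorylate, had 444, 375 and 318 normalized counts in mTO-iTreg, 519, 593 and 601 in TGFβ-iTreg and 712, 817 and 698 in day 0 libraries. It fell by 0.60 on the log2 scale against TGFβ-iTreg (adjusted p = 0.0131) and by 0.98 against day 0 (adjusted p = 0.000368), while Pdhb and Dlat, other subunits of the complex, rose 1.50-fold and 1.68-fold against day 0 (adjusted p = 0.0159 and 0.0495). Pdha1 lies on the X chromosome, and the part of Xist in its result was not tested.

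Of 33 further tested genes of the HIF pathway and of hypoxia, 5 rose and 1 fell in mTO-iTreg against TGFβ-iTreg (15.2% rose, beside 14.9% of all genes), 10 rose and 2 fell against day 0, and 6 rose and 2 fell in TGFβ-iTreg against day 0. The shares that rose against day 0 were 30.3% and 18.2%, beside 19.4% and 9.78% of all genes. Those that fell in the 3 comparisons were 3.03%, 6.06% and 6.06%, beside 11.8%, 14.5% and 8.8% of all genes. The median log2 difference of the 33 genes between mTO-iTreg and TGFβ-iTreg was 0.40, beside 1.00 for the 36 members. The 4 largest rises against TGFβ-iTreg were Plin2, a lipid droplet protein (2.45-fold, adjusted p = 0.0449), Kdm4b, a histone demethylase (2.34-fold, adjusted p = 0.0365), Hilpda, an inhibitor of lipid breakdown (2.35-fold, adjusted p = 0.00936), and Ero1l, an oxidase of the endoplasmic reticulum (1.88-fold, adjusted p = 0.00378). Of these, only Kdm4b also passed as higher in mTO-iTreg than at day 0. Ero1l fell in TGFβ-iTreg against day 0 (log2 difference -0.63 ± 0.20, adjusted p = 0.0397) and did not pass in mTO-iTreg against day 0 (adjusted p = 0.285). The 1 gene that fell against TGFβ-iTreg was Ddit4, which rose over day 0 in both kinds of iTreg cells. Bhlhe40, a HIF-induced repressor, had 264, 382 and 239.8 normalized counts in mTO-iTreg, 93.5, 149.9 and 80.5 in TGFβ-iTreg and 12.3, 5.38 and 54.9 in day 0 libraries. It rose over day 0 in both kinds of iTreg cells (adjusted p = 0.00015 in mTO-iTreg and 0.00746 in TGFβ-iTreg). Ndrg1, a stress gene induced by hypoxia, rose over day 0 3.56-fold in mTO-iTreg (adjusted p = 0.000295) and 2.28-fold in TGFβ-iTreg cells (adjusted p = 0.0111). P4ha2, a collagen prolyl hydroxylase, was read 31 times in mTO-iTreg, 6 times in TGFβ-iTreg and not at all in day 0 cells. P4ha2 was tested only through its mTO-iTreg libraries, so its call, 1 of the 10, is no support. Mxi1, a repressor related to the partners of Myc, rose in all 3 comparisons, 1.75-fold in mTO-iTreg over TGFβ-iTreg (adjusted p = 0.0124) and 1.93-fold in TGFβ-iTreg over day 0 (adjusted p = 0.00707). Epas1, which encodes HIF-2α, fell in TGFβ-iTreg against day 0 (log2 difference -3.75 ± 0.93, adjusted p = 0.0131), while Mt1, a metallothionein, and Rbpj, the DNA-binding partner of Notch, rose by 2.19 ± 0.72 and 1.22 ± 0.25 on the log2 scale (adjusted p = 0.0479 and 0.00422).

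Markers of other cell types were read beside these results. Of 18 markers of intestinal epithelium and organoids, 10 were in the table and summed to 43.7 to 171 normalized counts in mTO-iTreg, 139 to 153 in TGFβ-iTreg, which had no organoids, and 18.8 to 42.1 in day 0 libraries. In mTO-iTreg libraries Cldn4 and Lgr5 were at 0, Krt18, Vil1 and Muc2 were at most 4.65, 2.48 and 0.664, and Epcam was 21.1 to 89.0, against 74.1 to 113 in TGFβ-iTreg libraries. Cdh1 was 9.31 to 20.6 in mTO-iTreg, 25.1 to 52.9 in TGFβ-iTreg and 0 to 5.26 in day 0 libraries. Lgals4 was 9.55 to 9.96 in mTO-iTreg, 0 to 3.39 in TGFβ-iTreg and 0 to 11.6 in day 0 libraries. Elf3, at 31.9, and Ascl2, at 14.6, were above 0 in mTO-iTreg replicate 3 only among mTO-iTreg libraries, while Elf3 was at 14.8 in TGFβ-iTreg replicate 1 and Ascl2 at 22.8 in day 0 replicate 1. The highest sum, 171, was in mTO-iTreg replicate 3, and without that replicate 17 members rose and 1 fell against TGFβ-iTreg. Of 14 markers of myeloid and antigen-presenting cells, 11 were in the table, with sums of 926 to 1122 in mTO-iTreg, 811 to 1119 in TGFβ-iTreg and 1228 to 6403 in day 0 libraries. H2-Ab1, an MHC class II gene, was 208 to 313 in mTO-iTreg, 33.1 to 88.5 in TGFβ-iTreg and 293 to 2463 in day 0 libraries. Its mTO-iTreg and TGFβ-iTreg libraries did not overlap. Cd74 was also higher in mTO-iTreg (122.2 to 194) than in TGFβ-iTreg libraries (78.1 to 122.1). Cst3 went the other way, at 462 to 610 in mTO-iTreg and 652 to 804 in TGFβ-iTreg libraries. H2-Aa overlapped, at 32.5 to 190 and 32.1 to 113. Itgax and Cd14 were at 0 in mTO-iTreg libraries. The 6403 belong to day 0 replicate 3, which also held all 28 day 0 counts of Hk2. Without it 23 members rose against day 0 in mTO-iTreg and 9 in TGFβ-iTreg cells. Of 7 B cell markers, 5 were in the table and summed to 61.1 to 110 in mTO-iTreg, 30.6 to 74.6 in TGFβ-iTreg and 10.5 to 57.0 in day 0 libraries. Cd79b among them was 48.5 to 73.0 in mTO-iTreg, 4.45 to 14.9 in TGFβ-iTreg and 0 to 7.38 in day 0 libraries, while Cd79a was 11.3 to 28.6, 24.7 to 40.7 and 5.26 to 26.4 in the same groups. Of 7 erythroid and platelet markers, 0 were in the table, so such cells could not be read. The part of other cells in any of the 3 comparisons was not tested.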

How the data were processed

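Gene expression was measured by RNA-seq of 9 libraries with a modified CEL-Seq protocol, which reads 3′ ends, per the labels' protocols. The deposited values are normalized counts, that is, counts per gene after division by each library's size factor; BWA, DESeq2 and mm10 are named in the submitters' processing notes, while versions, strand and the handling of molecular identifiers are not stated there. The 36 members and all other lists were chosen with earlier results of these data known. Genes with at least 5 in at least 3 of 9 libraries were tested with limma 3.58.1 in R 4.3.3 on log2(value + 1), with a mean for each of the 3 groups, 6 residual degrees of freedom, moderation along a trend in the mean and Benjamini-Hochberg adjustment over 10983 genes, with a threshold of 0.05. This scale understates the change of low genes. Dividing each value by that of 1 count gave whole counts for 100% of values within 0.1, so a limma-voom fit on these recovered reads was added after seeing the data; edgeR and DESeq2 fits that had been planned were not run. Intervals and floors of 3 counts cover counting error only. Members called with an absolute log2 difference of at least 1 have values per library, and the others, apart from Ldha and Eno1, have ranges. Of each other list, up to 4 called genes per comparison were named by the size of their log2 difference. Further calls of genes so named, and Ddit4, were given beside them. Myc, Pdha1 and Bhlhe40 were given with values per library. Correlations of the deviations of same-numbered libraries were -0.05 to 0.06, under the 0.1 required, so the numbers were not taken as pairs; the labels do not say whether a shared number means a shared mouse. Ratios were tested with scipy 1.17.1. Shared 3′ ends were counted as runs of 50 bases in the last 500 bases of GENCODE M21 transcripts on GRCm38, which also gave gene positions. The code was tested on simulated data. Alternatives varied pseudocount, filter, scaling, model and libraries, and 1 kept the main fit but required a log2 difference of at least 1 for a call.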

Additional observations from a re-analysis of the deposited data

How the results depend on the processing

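Of the members' calls, 14 of 19 between mTO-iTreg and TGFβ-iTreg, 19 of 25 between mTO-iTreg and day 0 and 3 of 12 between TGFβ-iTreg and day 0 were kept under all alternatives run for them (22, or 21 for Car9 and Pfkfb4, which have no value with the filter at 20), and none of the called differences reversed. Among these alternatives, 1 was the main fit with a required log2 difference of at least 1, which every smaller called difference loses by construction. Lost only there were the calls of Pgk1, Bnip3l and Mif between mTO-iTreg and TGFβ-iTreg. The same held for Ldha and Pdk1 between mTO-iTreg and day 0, and for Ldha and Mif between TGFβ-iTreg and day 0. The kept calls include those of Car9 and Pfkfb4 against TGFβ-iTreg and of Car9 against day 0, which are no support as given above. Leaving out 1 library at a time gave 16 to 18, 22 to 24 and 5 to 10 members higher and 1 to 3, 1 to 2 and 1 to 2 lower in these comparisons. The counts of members higher in mTO-iTreg cells again include these calls. For TGFβ-iTreg against day 0 the members higher were 5 without TGFβ-iTreg replicate 2, 7 without its replicate 3 and 7 without day 0 replicate 1, beside 11. The members lower in mTO-iTreg than in TGFβ-iTreg were 1, beside 2, with no filter, with equal totals, with scaling without mitochondrial genes and Rn45s and with the replicate block, and those lower than at day 0 were 1 with equal totals and with that scaling. Requiring a log2 difference of at least 1 left 0 lower in either comparison and 4 higher in TGFβ-iTreg than at day 0. With the replicate block 16, 23 and 8 members were higher, beside 17, 23 and 11; the numbers were not taken as pairs, although Xist stood highest in replicate 3 of both TGFβ-iTreg (70.6) and day 0 (212).

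A pseudocount of 5 gave isozyme differences of 3.62 for Eno2/Eno1 (mTO-iTreg minus day 0), -2.36 and -2.65 for Slc16a1/Slc16a3 (mTO-iTreg minus TGFβ-iTreg and minus day 0) and 1.83 for Pfkfb4/Pfkfb3 (mTO-iTreg minus TGFβ-iTreg, 4.21 with a pseudocount of 0.5). Eno2/Eno1 between mTO-iTreg and TGFβ-iTreg ran from -0.0936 to 2.46 with 1 library left out.

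Reversals were all of differences that did not pass. Between mTO-iTreg and TGFβ-iTreg, quantile normalization gave 0.0583 for Pgam1, 0.045 for Ldha and -0.0046 for Egln1, which was -0.11 with TMM, -0.0063 with equal totals and -0.15 with limma-voom. Between mTO-iTreg and day 0, Slc2a1 was -0.0036 with TMM, -0.13 with quantile normalization and -0.12 with limma-voom, Pdk3 was -0.0099, -0.0316 and -0.0584 under the same settings, and equal totals gave 0.0245 for Pfkfb3, 0.0746 for Egln1 and 0.0748 for P4ha1. Between TGFβ-iTreg and day 0, equal totals gave 0.06 for Slc2a3, 0.12 for Aldoa and 0.081 for Egln1, scaling without mitochondrial genes gave 0.0005 for Aldoa, and limma-voom gave -0.26 for Eno3. Without the shallowest TGFβ-iTreg and day 0 libraries, values were 0.007 for Ldha and -0.0792 for Egln1 (mTO-iTreg against TGFβ-iTreg), -0.18 for Slc2a1, -0.0488 for Pdk3 and 0.0068 for P4ha1 (mTO-iTreg against day 0), and -0.28 for Eno3 and 0.0276 for Egln1 (TGFβ-iTreg against day 0). With 1 library left out, ranges crossed 0 between mTO-iTreg and TGFβ-iTreg for Slc2a1 (-0.52 to 0.0217), Eno1 (-0.039 to 1.50), Ldha (-0.0749 to 0.0552), Egln1 (-0.10 to 0.13) and P4ha1 (-0.0402 to 0.48). They did so between mTO-iTreg and day 0 for Slc2a1 (-0.19 to 0.27), Pfkfb3 (-0.50 to 0.26), Eno1 (-1.17 to 0.36), Slc16a1 (-0.71 to 0.0351), Pdk3 (-0.0921 to 0.18) and P4ha1 (-0.32 to 0.11), and between TGFβ-iTreg and day 0 for Pfkp (-0.0799 to 0.20), Eno3 (-0.35 to 0.86) and Bnip3l (-0.0632 to 0.27). The cause was not tested. The shallowest TGFβ-iTreg and day 0 libraries, at 2078223 and 2267922 counts, limit what can be said of genes near 3 counts, such as Car9, Pfkfb4 and Eno1.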

Other observations

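Genes of the pentose phosphate pathway, which branches off glycolysis at glucose-6-phosphate to make NADPH and ribose, and of glycogen use were all measurable (18 of 18 tested). In mTO-iTreg against TGFβ-iTreg cells 3 rose and 1 fell, in mTO-iTreg against day 0 cells 5 rose and 2 fell, and in TGFβ-iTreg against day 0 cells 3 rose and none fell (limma, 18 genes; 14.9%, 19.4% and 9.78% of all genes rose). The shares of the 18 that rose were 16.7%, 27.8% and 16.7%. Those that fell were 5.56%, 11.1% and 0%, beside 11.8%, 14.5% and 8.8% of all genes. The 3 called higher against TGFβ-iTreg were the glycogen phosphorylases, which release glucose-1-phosphate from glycogen. Pygm, the muscle form, had 108, 171 and 160.1 normalized counts in mTO-iTreg, 12.3, 20.3 and 6.92 in TGFβ-iTreg and 10.5, 2.69 and 30.6 in day 0 libraries. Pygb, the brain form, had 216, 217 and 306 normalized counts in mTO-iTreg, 76.2, 94.3 and 85.0 in TGFβ-iTreg and 109, 56.4 and 94.9 in day 0 libraries. Pygl, the liver form, had 38.9, 28.5 and 41.2 normalized counts in mTO-iTreg, 0, 0 and 0 in TGFβ-iTreg and 3.51, 0 and 2.11 in day 0 libraries. All mTO-iTreg libraries lay above all others for Pygm, with adjusted p = 0.00254 against TGFβ-iTreg and 0.00105 against day 0; the values were 0.00185 and 0.00112 for Pygb. Pygl reached the minimum for testing only through the mTO-iTreg libraries, so its calls are no support and no p-value is given.

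Among the pentose phosphate enzymes, Pgd, phosphogluconate dehydrogenase, had 116, 98.6 and 82.4 normalized counts in mTO-iTreg, 202, 214 and 256 in TGFβ-iTreg and 147, 126 and 122 in day 0 libraries. It fell by 1.18 on the log2 scale in mTO-iTreg against TGFβ-iTreg cells (adjusted p = 0.00219) and rose 1.70-fold in TGFβ-iTreg against day 0 cells (adjusted p = 0.0366). Gbe1, the glycogen branching enzyme, fell to 0.383 of the day 0 mean in mTO-iTreg cells (adjusted p = 0.0123). It is also 1 of the 2 that fell there among the genes of the HIF pathway and of hypoxia. Tkt, transketolase, and Pgls, 6-phosphogluconolactonase, rose against day 0 in both kinds of iTreg cells, Tkt 2.24-fold in mTO-iTreg and 2.43-fold in TGFβ-iTreg cells (adjusted p = 0.000442 and 0.000538).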
